A study of Mus musculus with 10 samples.

Results

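The 2′-5′-oligoadenylate synthetase (OAS) family was examined in WEHI 164 tumors that later regressed or grew back after a poly(I:C) hydrogel was placed in the wound. The family was taken as 8 genes by symbol, Oas1a, Oas1b, Oas1c, Oas1g, Oas2, Oas3, Oasl1 and Oasl2, out of 35958 features in the count table once rows of one name were summed. All 8 genes passed the filter on low counts, as did 15767 features in all. WEHI 164 is a mouse fibrosarcoma line, grown here under the skin of female BALB/c mice that are labelled wild type and untreated. The piece sequenced was the part cut away at partial resection, before any hydrogel was applied, so no tumor had met poly(I:C), a synthetic double-stranded RNA. Responders (RS, tumors 5, 9, 10, 11 and 12) went on to complete regression, and non-responders (NR, tumors 1, 2, 3, 6 and 7) showed no delay in growth. Each tumor came from a separate mouse, and the labels name no batch. The tumors are grafts of 1 cell line, and each piece also holds cells of the host. Depth was 16002778 to 31160578 estimated counts a tumor in RS, and 19863697 to 28275958 in NR. For the labelled cell type 7 mesenchymal genes were read, but host cells such as fibroblasts also express them, so their detection cannot check the label. All 7 were detected, with Vim (vimentin) at 4863 ± 425 CPM (counts scaled to equal library size) in RS and 4665 ± 363 in NR (SD, n = 5 each). Their sum was 11585 ± 446 CPM in RS and 12227 ± 797 in NR, with 6 of the 7 lower in RS on average and 2 of these, Col1a1 and Col3a1, at an unadjusted p under 0.05 (edgeR adjusted p = 0.580 each).

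OAS proteins are induced by interferon and switched on by double-stranded RNA. The active enzymes join ATP into short 2′-5′-linked oligoadenylates (2-5A), and 2-5A activates the latent nuclease RNase L, which cuts viral and cellular RNA. Their induction runs from the type I interferon receptor through the kinases Jak1 and Tyk2 to a complex that holds Stat2 and Irf9 and binds the interferon-stimulated response element (ISRE) in promoters.

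All 8 genes lie on mouse chromosome 5 (GRCm38, GENCODE vM21) in 2 groups that are 5.79 Mb apart. Oasl2 (chr5:114896936-114912234, plus strand) and Oasl1 (chr5:114923240-114937915, plus strand) stand side by side within 41.0 kb. The Oas1, Oas2 and Oas3 genes form a cluster of 10 genes over 191.3 kb, with Oas2 (chr5:120730333-120749853) and Oas3 (chr5:120753098-120777661) at one end and Oas1a (chr5:120896256-120907521) and Oas1g (chr5:120876142-120887613) toward the other, all on the minus strand. Oas1c (chr5:120800194-120812514, minus strand) and Oas1b (chr5:120812635-120824163, plus strand) face away from each other, with starts 121 bases apart. GENCODE lists Oas1b as a polymorphic pseudogene, since common laboratory strains carry a premature stop codon in it. Oas1c, Oas2 and Oasl1 overlap an annotated gene on the opposite strand (Gm43069, Gm43068 and Gm13822), and whether the reads were assigned by strand is not given in the sources used here.

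The starts of Oas1a, Oas1g and Oas1b are shown because they carry the same 16 bases, and that of Oas3 is shown beside them because its match differs. The letters searched on both strands were GAAANNGAAA for the ISRE, in 300 bases at each start (250 before, 50 after). These letters were found in 4 of the 6 members that have an entry in the RefSeq promoter table (Oas1a, Oas1g, Oas1c and Oas3). They were in 3.44% of all 32851 promoters of that length and, counted by gene, in 3.99% of 27025 genes. Oas1b and Oas2 have no entry, and the Oas1b bases were read from the entry of its neighbor Oas1c. Each line gives the 100 bases before the RefSeq start (for Oas1b, the GENCODE start) on the strand of the gene, 5′ to 3′, with the match in capitals.
Oas1a: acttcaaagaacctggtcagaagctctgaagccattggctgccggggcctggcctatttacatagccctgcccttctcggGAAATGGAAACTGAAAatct
Oas1g: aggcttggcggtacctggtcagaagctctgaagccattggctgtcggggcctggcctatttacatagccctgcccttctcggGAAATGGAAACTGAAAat
Oas1b: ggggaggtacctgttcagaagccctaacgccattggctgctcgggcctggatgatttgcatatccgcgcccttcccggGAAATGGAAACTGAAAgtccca
Oas3: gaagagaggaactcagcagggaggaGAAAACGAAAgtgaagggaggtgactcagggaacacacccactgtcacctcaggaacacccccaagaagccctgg

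These windows are chr5:120907526-120907625 for Oas1a, chr5:120887614-120887713 for Oas1g and chr5:120777660-120777759 for Oas3 (minus strand), and chr5:120812535-120812634 for Oas1b (plus strand), on GRCm38.p6. In Oas1a, Oas1g and Oas1b the capitals hold 2 overlapping matches in 16 identical bases, which begin 20, 18 and 22 bases before the start. The same site, read from the other strand as TTTCAGTTTCCATTTC, begins 114 bases before the start of Oas1c. The match of Oas3 begins 75 bases before its start. The windows of Oasl1 and Oasl2 hold no match to these letters. The letters TTCNNNGAA, for the gamma-activated site known from interferon gamma targets, were found in 1 of the 6 members, Oas1a. They were in 8.3% of all promoters and, counted by gene, in 9.55% of genes.

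Levels between genes were compared per length, as CPM per kilobase of the longest GENCODE transcript (mean ± SD over all 10 tumors). Oasl2 stood highest at 44.1 ± 7.07, and its lowest tumor (32.6) was above the highest tumor of the next gene, Oas1a (25.7). Oas1a had 20.6 ± 2.70, Oas2 17.1 ± 1.91, Oasl1 14.2 ± 1.68, Oas1g 9.75 ± 1.56, Oas3 7.40 ± 1.24 and Oas1b 5.56 ± 0.71 CPM per kilobase. From Oas1a to Oas1b the ranges of neighbors in this order overlapped over the tumors, although within each of the 10 tumors the order of every neighboring pair was the same. Oas1c was lowest at 1.01 ± 0.14, with a highest tumor of 1.25 that lay under the lowest tumor of Oas1b (4.12). The order depends on the length used: over all annotated exons Oasl2 had 21.6 and Oas1a 20.6 CPM per kilobase, and Oas1b (5.13) came before Oas3 (4.94).

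The question put to these tumors was whether OAS expression before treatment differed between RS and NR. No member differed at an adjusted p under 0.05 (edgeR quasi-likelihood test, Benjamini-Hochberg adjustment over 15767 features), and neither did any other feature (0 of 15767, 0%). At an unadjusted p under 0.05, 0 of 8 members were higher or lower in RS, against 663 features higher (4.2%) and 631 lower (4%). Of the members, 7 had a log2 fold change above 0, the side of 48.6% of all features, with a median of 0.09 over the members and -0.00 over all features. The group ranges of all 8 members overlapped, where they did not overlap, in either direction, for 0.926% of all features. DESeq2 called 1 feature and limma-voom 0 in the same table, with no member among them, and without RS tumor 5 edgeR called 9 features, also with no member. The smallest p that an exact two-sided permutation test of 5 tumors against 5 allows is 0.00794, and over the members such tests gave p from 0.238 to 0.992.

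**Figure D1:**
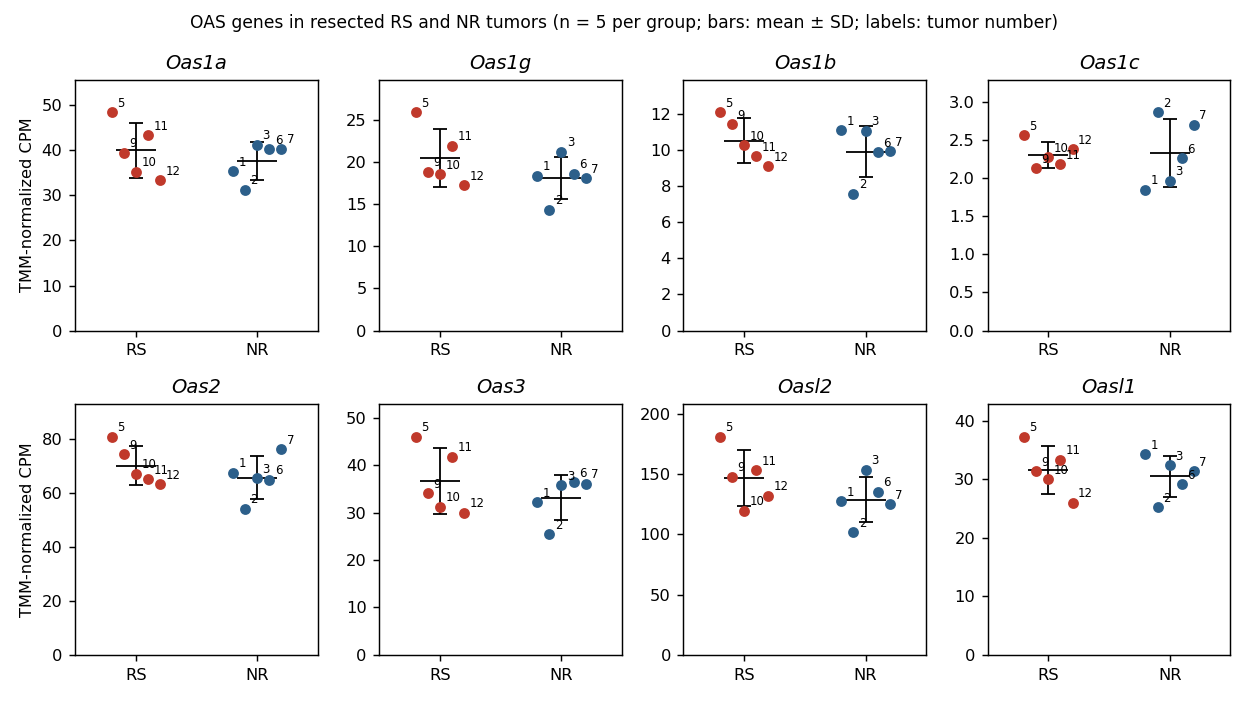
TMM-normalized CPM (y axis, linear from 0) of each OAS gene in the 5 RS (red) and 5 NR (blue) tumors, with tumor numbers beside the points and mean ± SD as bars. The groups overlap in every panel, and tumor 5 (RS) is highest and tumor 2 (NR) lowest for 7 of the 8 genes, all but Oas1c.

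Oasl2 is an active synthetase that also carries ubiquitin-like domains. Its level was 181, 148, 119.8, 153 and 132 CPM in RS tumors 5, 9, 10, 11 and 12, and 128, 102, 154, 136 and 125 CPM in NR tumors 1, 2, 3, 6 and 7. Only RS tumor 5 exceeded every NR tumor, and RS tumor 10 lay under 4 of them. Means were 147 ± 23.3 CPM in RS and 129 ± 18.8 in NR (SD, n = 5 each). This gave the highest log2 fold change of the family, 0.19 (95% interval -0.06 to 0.44, edgeR adjusted p = 0.687), which was 0.11 without RS tumor 5 and 0.12 without NR tumor 2. Oasl1 lacks synthetase activity and is known to hold back translation of Irf7. It was measured at 37.3, 31.3, 30.0, 33.4 and 26.0 CPM in the RS tumors and at 34.2, 25.2, 32.4, 29.1 and 31.4 CPM in the NR tumors, in the same order of tumors. NR tumor 1 was the second highest of the 10, and the groups lay over each other. On the log2 scale the fold change was 0.05 (95% interval -0.16 to 0.27, edgeR adjusted p = 0.910), and its sign turned without RS tumor 5 or without NR tumor 2 (-0.01 each).

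Oas1a and Oas1g encode active synthetases and are close copies. Oas1a stood at 48.4, 39.5, 35.3, 43.4 and 33.4 CPM in RS tumors 5, 9, 10, 11 and 12, and at 35.3, 31.3, 41.2, 40.2 and 40.4 CPM in NR tumors 1, 2, 3, 6 and 7. RS tumors 5 and 11 were above all NR tumors, while RS tumor 12 was second lowest of the 10. Oas1a had a log2 fold change of 0.09 (95% interval -0.14 to 0.32, edgeR adjusted p = 0.855), which was 0.01 without RS tumor 5 and 0.03 without NR tumor 2. Oas1g was measured at 25.8, 18.8, 18.6, 21.9 and 17.2 CPM in RS and at 18.4, 14.3, 21.2, 18.6 and 18.1 CPM in NR. Again RS tumors 5 and 11 lay above all NR tumors and the other 3 within their range, with a log2 fold change of 0.18 (95% interval -0.08 to 0.44, edgeR adjusted p = 0.711). Without RS tumor 5 it was 0.09, and without NR tumor 2 it was 0.11.

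The split of reads between Oas1a and Oas1g is an estimate. Of the 31-base words in Oas1a transcripts 68.7% also occur in Oas1g, and 54.6% of the Oas1g words occur in Oas1a. Estimated counts were whole numbers (within 0.01) in 0 of 10 tumors for Oas1a and Oas1g, but also for Oas3 and Oasl2, which share 2.27% and 1.23% of their words with any other gene. They were whole in 1 tumor for Oas1b and in all 10 for Oas1c, Oas2 and Oasl1, although Oas1c shares 25.2% of its words, so whole counts do not follow the shared words. The ratio of Oas1a to Oas1g was 1.96 ± 0.09 in RS and 2.09 ± 0.15 in NR (SD, n = 5 each) and ran from 1.88 to 2.23. With the 8 rows Oas1a to Oas1h summed to 1 feature, which does not depend on the split, the log2 fold change was 0.11 (SE 0.10, edgeR adjusted p = 0.789). It was 0.03 without RS tumor 5 and 0.04 without NR tumor 2.

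Oas1b, which protects resistant mouse strains against flaviviruses, had 12.1, 11.4, 10.3, 9.66 and 9.09 CPM in the RS tumors and 11.1, 7.58, 11.1, 9.88 and 9.94 CPM in the NR tumors. RS tumors 5 and 9 were the highest of the 10, and RS tumors 11 and 12 were under all NR tumors but tumor 2. The log2 fold change of 0.08 (95% interval -0.17 to 0.34, edgeR adjusted p = 0.875) came to -0.00 without NR tumor 2 and to 0.03 without RS tumor 5. Oas1c, a member of the Oas1 group without synthetase activity, was low, at 2.56, 2.13, 2.27, 2.18 and 2.38 CPM in RS and 1.85, 2.86, 1.96, 2.26 and 2.70 CPM in NR. NR tumors held both its highest and its lowest value. Its log2 fold change was -0.02 (95% interval -0.35 to 0.31, edgeR adjusted p = 0.987), with the opposite sign once any 1 of 4 tumors (RS 9, RS 11, NR 2 or NR 7) was left out.

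Oas2 and Oas3 carry a pair and a triplet of OAS domains. Oas2 was measured at 80.8, 74.5, 67.1, 65.0 and 63.2 CPM in RS and at 67.5, 54.2, 65.5, 65.0 and 76.3 CPM in NR. NR tumor 7 was second only to RS tumor 5, and the log2 fold change was 0.09 (95% interval -0.10 to 0.29, edgeR adjusted p = 0.801), which was 0.03 without NR tumor 2 and 0.04 without RS tumor 5. Oas3 was measured at 46.0, 34.1, 31.2, 41.8 and 30.0 CPM in RS and at 32.2, 25.4, 35.8, 36.4 and 36.1 CPM in NR. RS tumors 5 and 11 stood above all NR tumors, and RS tumors 10 and 12 under all NR tumors but tumor 2. Its log2 fold change was 0.15 (95% interval -0.13 to 0.43, edgeR adjusted p = 0.785), which was 0.06 without RS tumor 5 and 0.06 without NR tumor 2. At least 2 RS tumors above every NR tumor, as in Oas1a, Oas1b, Oas1g and Oas3, was found for 22.2% of all features.

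Other OAS paralogs were near the floor of the assay. Oas1d had at most 2 and Oas1e at most 4 estimated counts in a tumor, and Oas1f was at 0 in all 10. Oas1h had 5 to 16.03 estimated counts per tumor and passed the filter, with a log2 fold change of -0.05 (edgeR adjusted p = 0.983).

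Tumors of one group differed in each OAS gene by more than the group means did. A range over 5 tumors tends to exceed a difference between means, and the share of all features with this trait was not computed. The values are thus a description and do not set the OAS genes apart. Within RS the highest tumor exceeded the lowest by 1.21 times (Oas1c) to 1.53 times (Oas3), and within NR by 1.32 times (Oas1a) to 1.55 times (Oas1c), while the ratio of the RS to the NR mean ran from 0.991 (Oas1c) to 1.14 (Oasl2). Summed over the 8 members, RS tumors 5, 9, 10, 11 and 12 had 434, 359.7, 315, 371 and 313 CPM, and NR tumors 1, 2, 3, 6 and 7 had 328, 263, 363, 337 and 340.1 CPM. Tumor 5 headed and tumor 2 closed this order, with RS tumors 10 and 12 next to tumor 2 in rank and below the other 4 NR tumors. The means were 358 ± 49.5 CPM in RS and 326 ± 37.8 CPM in NR (SD, n = 5 each). Oasl2 made up 40.9 ± 1.61% of this sum in RS and 39.4 ± 2.04% in NR.

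To describe how the genes moved together, log2(CPM + 1) was standardized per gene over the 10 tumors and averaged over the 8 members, called the OAS level here. It was 1.56 in RS tumor 5, 0.40 in RS tumor 11, 0.24 in RS tumor 9, -0.32 in RS tumor 10 and -0.67 in RS tumor 12. In NR it was 0.26 in tumor 7, 0.23 in tumor 3, -0.09 in tumor 6, -0.22 in tumor 1 and -1.40 in tumor 2. RS tumors thus took ranks 1, 2, 4, 8 and 9 of 10. Among the 7 members other than Oas1c, Pearson's r of log2(CPM + 1) over the 10 tumors ran from 0.668 to 0.978 in 21 pairs, with a median of 0.807, and with the group means taken out the median was 0.803. Oas1c did not follow them, with r from -0.56 to -0.08. Without RS tumor 5 and NR tumor 2 the median over the 21 pairs was 0.422 in 8 tumors (-0.213 to 0.950). These 2 were the highest and lowest tumors of the family, and leaving out both ends of a shared range can lower r by itself. How much of the fall this makes up was not tested. The points of these correlations share libraries and normalization, and Oas1a and Oas1g also share sequence.

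By a fixed rule, the 10 features outside the family with the highest r to the OAS level were named. They were Usp18 (0.949), Dhx58 (0.926), Ifi44 (0.914), Ifi44l (0.900), Tlr3 (0.894), Parp12 (0.887), Rtp4 (0.878), Ifih1 (0.876), Phf11d (0.870) and Isg15 (0.869), where the median over all features was -0.0156. Most of these are interferon-stimulated genes: Usp18 removes Isg15 from proteins and restrains the type I receptor, Dhx58 and Ifih1 are cytosolic RNA helicases (LGP2 and MDA5), and Tlr3 is the endosomal receptor for double-stranded RNA and poly(I:C). Usp18 kept an r of 0.844 over the 8 tumors without RS tumor 5 and NR tumor 2. In the RS tumors Usp18 had 41.1, 32.6, 27.4, 32.4 and 27.4 CPM, and in the NR tumors 29.5, 24.5, 36.0, 29.5 and 31.5 CPM. As with the OAS genes, tumor 5 was highest and tumor 2 lowest, and its log2 fold change was 0.10 (edgeR adjusted p = 0.860). Among the 10 the log2 fold changes ran from -0.01 for Ifih1 to 0.17 for Phf11d.

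**Figure D2:**
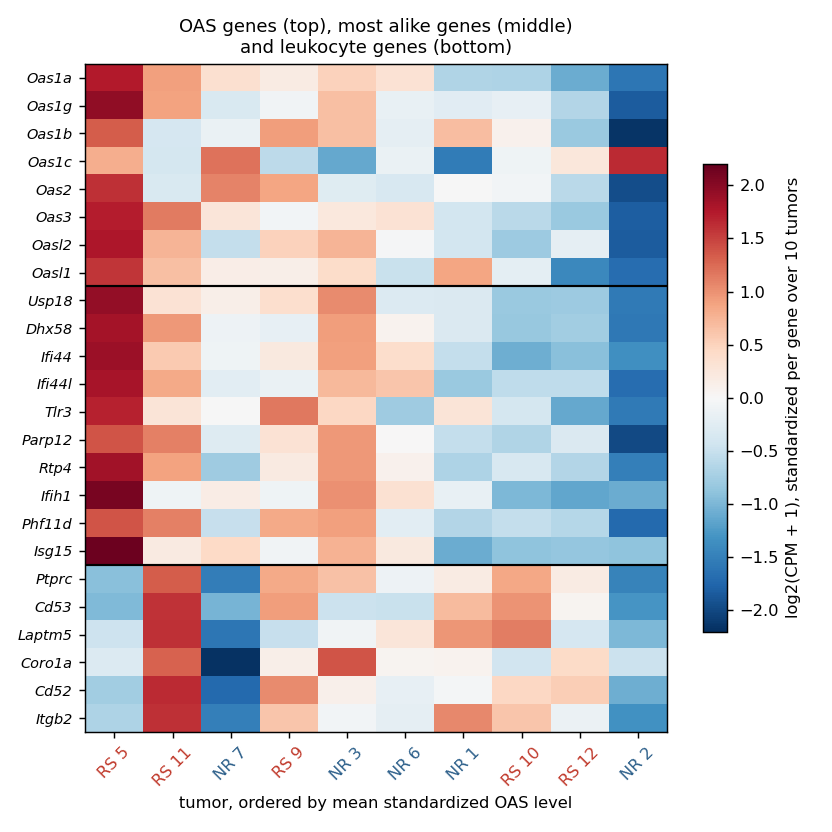
Heat map of log2(CPM + 1), standardized per gene over the 10 tumors (color, in SD units), with tumors ordered by OAS level from tumor 5 (left) to tumor 2 (right). The OAS genes other than Oas1c (top) and the 10 most alike genes (middle) are highest in tumor 5 and low in tumor 2. Between these the fall is uneven, as for Oas1b, Oas2 and Oasl1. The order was set by the OAS genes and the 10 were chosen by r to it, so the trend is partly built in. RS and NR tumors are mixed in this order, and 6 pan-leukocyte genes (bottom) do not follow it.

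Genes of the interferon pathway were read from the same fit, with lists chosen by hand. Of 6 genes of the receptor pathway 5 had a higher mean in RS, with a median log2 fold change of 0.13, and 0 reached an unadjusted p under 0.05 in edgeR. Stat2 had a log2 fold change of 0.23, Irf9 0.18, Ifnar2 0.16 and Ifnar1 0.09 (the receptor chains), Jak1 0.02 and Tyk2 -0.03, with adjusted p from 0.607 to 0.927. All 5 interferon regulatory factors had a higher mean in RS, and Irf8 (0.45) and Irf1 (0.41) had an unadjusted p under 0.05 and an edgeR adjusted p of 0.580. Irf7, the factor that amplifies type I interferon, had a log2 fold change of 0.06, Irf3 0.08 and Irf5 0.07.

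Tumor 5, the highest for OAS genes, was not the highest for Irf1 or Irf8, but was for Irf7 (88.7 CPM). Irf1 had 340.2 CPM there and 418.5 and 415 CPM in RS tumors 9 and 11, and Irf8 had 79.6 CPM there, the lowest of the RS tumors. Over the 10 tumors the r to the OAS level was 0.383 for Irf1 and 0.300 for Irf8, and 0.691 for Stat2, 0.673 for Irf9 and 0.819 for Irf7. Without RS tumor 5 and NR tumor 2 it was 0.127 for Irf1 and 0.0594 for Irf8 (n = 8). In the same 8 tumors it was 0.228 for Stat2, 0.474 for Irf9 and 0.689 for Irf7. The plot of OAS level against Usp18, Irf1 and leukocyte markers shows these relations tumor by tumor.

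**Figure D3:**
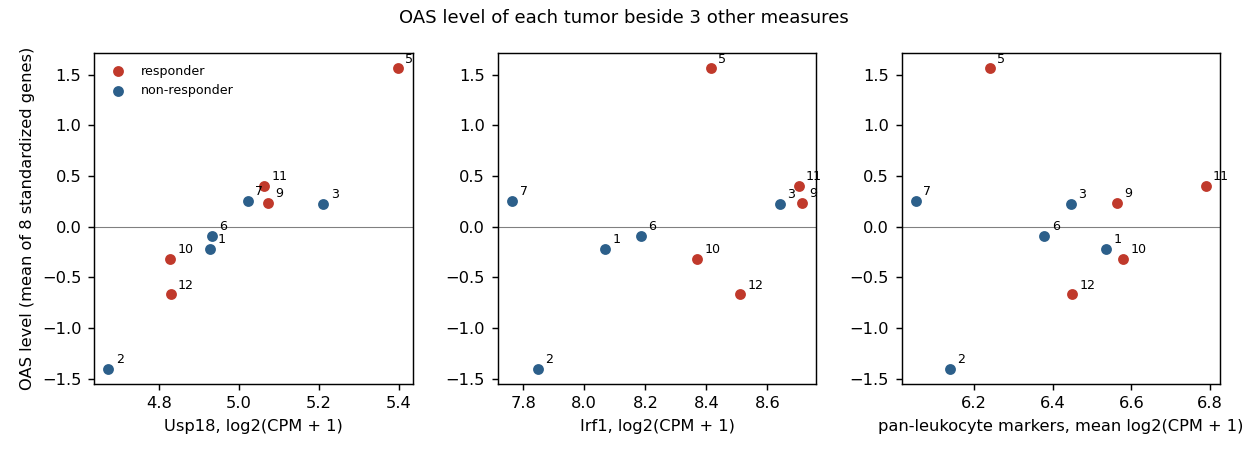
OAS level of each tumor (y axis, mean standardized log2(CPM + 1) of the 8 genes) against log2(CPM + 1) of Usp18 (left), of Irf1 (middle) and the mean log2(CPM + 1) of 6 pan-leukocyte markers (right), for RS (red) and NR (blue) tumors with their numbers. The points follow a line for Usp18 (r = 0.949), spread for Irf1 (r = 0.383) and show no slope for the leukocyte markers (r = 0.0765), all over 10 tumors.

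Of 9 sensors and adaptors for double-stranded RNA 5 had a higher mean in RS, and 1 of 9, Zbp1, reached an unadjusted p under 0.05. Zbp1, a sensor of Z-form nucleic acid that can start necroptosis, had 152 ± 25.6 CPM in RS and 112 ± 26.1 in NR (SD, n = 5 each). The difference was 0.45 on the log2 scale (edgeR adjusted p = 0.580). On the log2 scale the difference was 0.10 for Tlr3, 0.08 for Dhx58, 0.06 for the adaptor Mavs, 0.05 for Ddx58 (RIG-I), -0.00 for the editing enzyme Adar, -0.01 for Ifih1, -0.02 for Eif2ak2 (PKR) and -0.08 for the Tlr3 adaptor Ticam1. Of 5 negative regulators of interferon signaling 4 had a higher mean in RS and none reached an unadjusted p under 0.05. Among them Socs1 had 0.29, Usp18 and Socs3 0.10, Ptpn2 0.07 and Pias1 -0.02 on the log2 scale.

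Another 4 genes were read as a list for the effector and the turnover of 2-5A. Abce1, reported to bind and inhibit RNase L, had 336 ± 7.34 CPM in RS and 354 ± 22.9 in NR (SD, n = 5 each), or -0.07 on the log2 scale. Pde12 and Akap7, phosphodiesterases that can degrade 2-5A, had -0.10 and -0.08, and Cnp, of the same wider enzyme family as Akap7, had 0.04. None of the 4 reached an unadjusted p under 0.05 in edgeR (adjusted p from 0.707 to 0.900), and their r to the OAS level ran from -0.0351 to 0.0872 over 10 tumors.

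Of 29 other interferon-stimulated genes (Ifih1 is counted here and among the sensors) 22 had a higher mean in RS, with a median log2 fold change of 0.07. At an unadjusted p under 0.05, Bst2 (0.21), Dtx3l (0.26) and Xaf1 (0.31) were higher and Ifit1bl1 (-0.63, near 1 CPM) was lower, with edgeR adjusted p from 0.586 to 0.591. The most abundant of the list were Bst2 (tetherin), Parp14 (0.22), Trim25 (0.04) and Tor3a (0.10). The r to the OAS level was above 0.5 for 27 of the 29, with a median of 0.748, and above 0.5 for 6 of the 9 sensors, where it was above 0.5 for 4.2% of the 15759 features outside the family. Without RS tumor 5 and NR tumor 2 it was above 0.5 for 9 of the 29 (median 0.390) and for 3 of the 9 sensors, beside 4.25% of the features outside the family (n = 8).

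**Figure D4:**
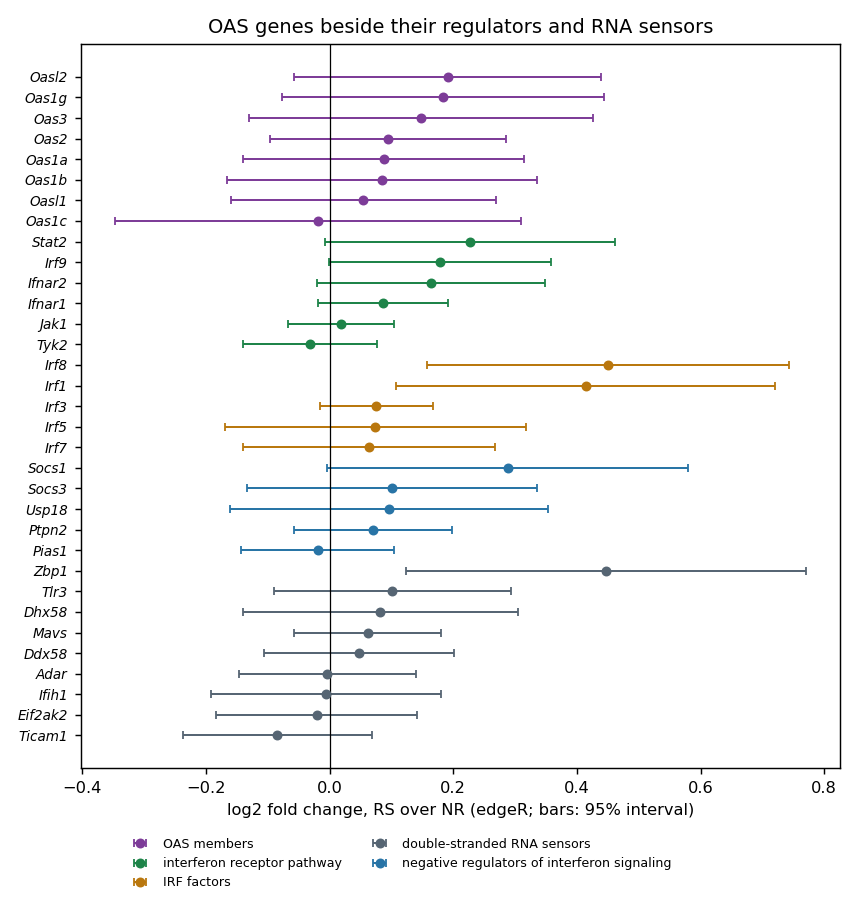
Log2 fold change of RS over NR (x axis, edgeR) with 95% intervals as bars for the 8 OAS genes, the interferon receptor pathway, the interferon regulatory factors, negative regulators and double-stranded RNA sensors. The intervals of all 8 OAS genes cross 0, while those of Irf1, Irf8 and Zbp1 do not, and no gene shown passed the adjusted threshold.

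Transcripts of the 7 interferon ligand genes in the list were scarce, and other ligand genes were not read. Ifnb1 had at most 4 estimated counts in any tumor, Ifna2 and Ifna4 at most 2, and Ifna1, Ifnl2 and Ifnl3 were at 0 in all. Ifng, made by NK and T cells, was the only one of 7 ligands past the filter, at 1.48, 3.06, 1.97, 3.94 and 2.30 CPM in RS tumors 5, 9, 10, 11 and 12 and 1.76, 0.71, 1.46, 2.03 and 1.13 CPM in NR tumors 1, 2, 3, 6 and 7. RS tumors 9, 11 and 12 exceeded every NR tumor, and tumor 5, first for OAS genes, was the lowest of the RS tumors. Ifng had a log2 fold change of 0.86 (edgeR adjusted p = 0.580).

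Markers of host cells were set beside the OAS genes, since a tumor piece is a mixture in which more cells of a type and more RNA per cell cannot be told apart. All 6 pan-leukocyte genes had a higher mean in RS, 2 of them with an unadjusted p under 0.05, and Laptm5 was the most abundant. Their summed level was 507, 608, 639.9, 724 and 567 CPM in RS tumors 5, 9, 10, 11 and 12 and 628, 471, 577, 558 and 446 CPM in NR tumors 1, 2, 3, 6 and 7. Tumor 5 was thus the lowest of the RS tumors, and tumors 2 and 7 the lowest of all. The mean score of the list had an r of 0.0765 to the OAS level over 10 tumors, and the macrophage score 0.254, the T cell score -0.116 and the NK cell score -0.0171. The B cell score rests on 2 genes near the floor, Cd79a (mean 0.49 CPM in RS, 0.69 in NR) and Cd79b (0.67 and 0.53). With an r of -0.450 (0.144 without RS tumor 5 and NR tumor 2) it was furthest from 0 of the 12 cell type scores. Next came the endothelial score (-0.443, and -0.455 without these tumors). The mesenchymal score had -0.241, and -0.0368 without them, and the macrophage score came to 0.0812 without them. With the pan-leukocyte score as a covariate in edgeR, the log2 fold changes of the members ran from 0.03 to 0.18 and 0 of 8 passed the adjusted threshold, and Oas1c was the 1 member whose sign turned, from -0.02 to 0.18.

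Of 9 macrophage and monocyte genes 8 had a higher mean in RS, with a sum of 1067 ± 114 CPM in RS and 976 ± 122 in NR (SD, n = 5 each) and Mrc1 as the most abundant. At an unadjusted p under 0.05 Ly6c2 was higher (log2 fold change 0.48) and Ccr2 lower (-0.23), with edgeR adjusted p of 0.580 and 0.607. Over these 9 genes r to the OAS level ran from -0.237 to 0.601 (Ly6c2), with a median of 0.122 over 10 tumors. Leaving out RS tumor 5 and NR tumor 2 left 0 of the 9 above 0.5 (n = 8). The 5 NK cell genes were chosen with earlier results of these data known, and T cells can also express some, such as Gzma. All 5 were higher in RS at an unadjusted p under 0.05 (edgeR adjusted p from 0.580 to 0.597), where 4.2% of all features were. Their sum, led by Gzma, was 30.8, 106, 122, 203 and 117 CPM in RS and 66.3, 26.1, 37.3, 65.0 and 32.3 CPM in NR, in the order of tumors above. RS tumor 5 was here next to the lowest of all 10. All 7 T cell genes had a higher mean in RS and 0 reached an unadjusted p under 0.05, with sums of 32.9 ± 11.5 CPM in RS and 24.6 ± 8.41 in NR. All 5 skeletal muscle genes had a lower mean in RS, 2 with an unadjusted p under 0.05, with sums of 106 ± 45.9 and 143 ± 39.9 CPM led by Acta1. Of 6 neutrophil genes 5 passed the filter, with sums of 33.4 ± 12.2 CPM in RS and 21.8 ± 6.38 in NR led by Csf3r, while Ly6g had at most 2 estimated counts in any tumor. Of 5 keratinocyte genes 1 passed, Krt10, at 3.10 ± 0.36 CPM in RS and 3.08 ± 0.51 in NR, while Krt1 was at 0 in all tumors. The part of host cells, leukocytes among them, in the OAS values was not tested.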

How the data were processed

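PolyA RNA was sequenced as paired-end reads. Kallisto and tximport (reference mm10, the assembly GRCm38) gave the estimated counts per gene that the authors deposited, with no scaling for depth or length. Of 36009 rows, 9580 had no name and 44 names were repeated. Rows of one name were summed here, unnamed rows kept, and estimated counts rounded. Features with CPM above 0.366 in at least 3 tumors were tested with edgeR 4.0.16 (quasi-likelihood, TMM, Benjamini-Hochberg, threshold 0.05) in R 4.3.3, all 10 tumors, no covariate. The biological coefficient of variation was 10.4%. CPM values are TMM-normalized. SE is the log2 fold change divided by the root of edgeR's F. DESeq2 1.42.0, limma 3.58.1, other scalings and filters, a leukocyte covariate, exact permutation tests and leaving out each tumor were alternatives. The edgeR code was first tested on simulated data. Correlations over tumors are descriptions. Figures used Python 3.11.15.

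The genes and lists were chosen with earlier results of these data known. Named were all members, all genes of the 2-5A, receptor, interferon regulatory factor and sensor lists, up to 4 of highest mean CPM in other lists, and the 10 features most like the OAS level. Dtx3l, Xaf1, Ifit1bl1, Col1a1, Ly6c2, Ccr2 and the genes near 0 were named after their values were seen. Dendritic cell, endothelial and adipocyte genes were also read. Some genes of the lists are not reported here.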

Additional observations from a re-analysis of the deposited data

How the results depend on the processing

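The count of members past an adjusted p of 0.05 was 0 under all 17 alternatives run. The count of all features was 0, 1 with the DESeq2 Wald test, and 0 to 9 with 1 tumor left out, the 9 without RS tumor 5. Of 161 recomputed gene fold changes, 153 kept their direction, 8 reversed and 0 were called, with a lowest adjusted p of 0.515. The reversed ones were of Oas1b (1), Oas1c (5) and Oasl1 (2). Oas1c came to 0.18 with the pan-leukocyte score as a covariate. With 1 tumor left out the log2 fold change ran from 0.01 to 0.15 for Oas1a, -0.00071 to 0.13 for Oas1b, -0.0907 to 0.0696 for Oas1c, 0.09 to 0.25 for Oas1g, 0.03 to 0.16 for Oas2, 0.06 to 0.21 for Oas3, -0.0093 to 0.12 for Oasl1 and 0.11 to 0.26 for Oasl2. Oas1c was 0.01 without RS tumor 9 or 11, 0.0696 without NR tumor 2 and 0.04 without NR tumor 7. Oasl2 reached an unadjusted p under 0.05 without RS tumor 10 or without NR tumor 3, at a log2 fold change of 0.26 in both. The causes were not tested. The labels give no pairing between RS and NR tumors, which came from separate mice, so no paired analysis was run.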

Other observations

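Further values of the marker lists were as follows. Of 6 dendritic cell genes 3 had a higher mean in RS, with sums of 53.1 ± 4.42 CPM in RS and 58.9 ± 11.5 in NR (SD, n = 5 each), led by Itgax. Of 5 endothelial genes 4 had a lower mean in RS and 2 of them, Cdh5 (log2 fold change -0.39) and Kdr (-0.19), an unadjusted p under 0.05 with edgeR adjusted p of 0.580 and 0.591. All 5 neutrophil genes past the filter had a higher mean in RS, and 1 of them, Csf3r, an unadjusted p under 0.05 (edgeR adjusted p = 0.586). Of the 2 B cell genes past the filter 1 had a higher mean in RS, and the 4 adipocyte genes had lower means there, with sums of 3.07 ± 1.84 and 4.31 ± 2.54 CPM. The log2 fold change of Krt10 was 0.01.

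No tumor stood apart from its group by Dixon's gap test in any of the 16 sets of 5 values (8 genes, 2 groups), where chance gives 0.8. With a biological coefficient of variation of 10.4% and 5 tumors a group, the 95% intervals of the members reached at most 0.44 on the log2 scale above 0 and -0.35 below it. The files do not show whether differences within these bounds exist.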
